A study of Mus musculus with 4 samples.

Results

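The HMG-box factors *Tcf7*, *Lef1*, *Sox4*, *Sox12* and *Sox13*, the coactivator gene *Ctnnb1*, the Groucho corepressors *Tle1*, *Tle3* and *Tle4*, and *Axin2* were followed in CD69+DP thymocytes with and without Foxa1 and Foxa2. These 10 genes were picked by name from the 24421 genes listed, and each matched 1 listed gene. They were proposed with the FPKM of all 4 samples in view, so their differences between genotypes are given as a description and are not evidence of a change. CD69+DP thymocytes are CD4+CD8+ cells that carry the activation marker CD69 after a TCR signal. They were sorted from the thymus of C57BL/6 mice aged 6 weeks. All mice carried floxed alleles of both genes, Foxa1fl/fl and Foxa2fl/fl. The 2 control samples lacked Cre (CD4Cre-), and the 2 Foxa1/2cKO samples carried the transgene (CD4Cre+) in which the *Cd4* promoter drives Cre from the DP stage onwards. They are named cKO 1 and cKO 2 where a value is that of 1 sample. Controls had no Cre, so effects of the deletion and of Cre itself cannot be told apart. Each sample was sorted from different mice. Each sort took 2 mice of each genotype, and whether a sample pools mice is not clear from the methods, so the spread within a group may be that of mice or of pools. Each group SD rests on a single pair of samples, and the standard errors come from a fit of both pairs that borrows from all genes tested.

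Tcf1, encoded by *Tcf7*, and Lef1 are related HMG-box proteins that bind and bend DNA at the same short motif. With Groucho/Tle proteins bound they repress, and with beta-catenin bound they activate, and beta-catenin itself is held low by a cytoplasmic destruction complex built on axin. In the thymus Tcf1 and Lef1 are known for their part in T-lineage commitment, the survival of DP cells and the choice between the CD4 and CD8 lineages. Sox proteins have a related HMG box, and Sox4 and Sox13 are known in early and gamma-delta T cells.

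The deposited table names no unit. Its values were read as FPKM, that is reads scaled by the length of the gene and by a total for the sample. The reason is that in 93.8% of 370 genes checked their steps gave a whole gene length (tolerance 0.02 bases). The total was itself set to make lengths whole. Whole reads were found too, but by a search over lengths for each gene. Comparisons of levels between genes rest on the reading as FPKM and on the lengths used. Recovered reads on listed genes came to 10396359 to 14482013 per sample. The sort genes were present in each sample, with *Cd4* at 342 to 446 FPKM, *Cd8a* at 475 to 666, *Cd8b1* at 592 to 974 and *Cd69* at 103 to 121. *Foxa1* and *Foxa2* stood at 0 in every library, also in the controls, so they do not check the genotypes. cKO 2 stood apart in other genes. The summed FPKM of 8 cycling genes was 543 and 562 in the controls and 604 in cKO 1, but 241 in cKO 2. The sum of 8 mature single-positive genes was 1209 to 1289 in the other 3 samples and 1040 in cKO 2. The median absolute log2 difference between the 2 Foxa1/2cKO samples was 0.20 over the 10776 genes tested, against 0.08 between the 2 controls. RNA was taken from whole sorted populations, so fewer cells of a type and less RNA per cell cannot be told apart.

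By mean FPKM the 10 genes ran in the order *Tcf7*, *Lef1*, *Sox4*, *Ctnnb1*, *Tle3*, *Tle4*, *Axin2*, *Sox13*, *Sox12* and *Tle1*. *Tcf7* ranked 6 of all listed genes, *Lef1* 168, *Sox4* 338, *Ctnnb1* 492 and *Tle3* 770. *Tle4* and *Axin2* stood at 5681 and 6803, *Sox13* at 8067, and *Sox12* and *Tle1* at 10717 and 10919. The ranges over the 4 samples overlapped between *Axin2* and *Sox13* and between *Sox12* and *Tle1*. Each of the other neighbours in this order was separated in all 4 samples.

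**Figure D1:**
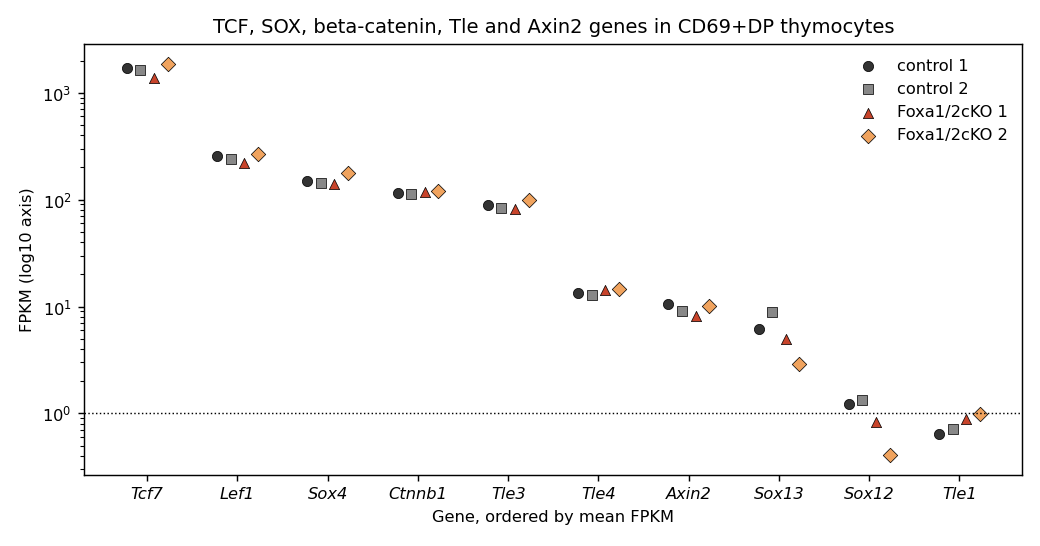
FPKM of each of the 10 genes in each of the 4 samples, on a log10 axis, with genes ordered by mean FPKM and the dotted line at an FPKM of 1. *Tcf7* lies between 1379 and 1873, and *Tle1* lies under 1 in all 4 samples.

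Of the TCF and LEF genes, *Tcf7* (chromosome 11 of mm10, 52246527 to 52283383, minus strand) had an FPKM of 1706 in control 1, 1645 in control 2, 1379 in cKO 1 and 1873 in cKO 2, from 33319 to 57139 reads. The groups overlapped, because cKO 1 lay below both controls and cKO 2 above both. The control mean was 1675 ± 42.96 (SD, n = 2) and the Foxa1/2cKO mean 1626 ± 349 (SD, n = 2). On the log2(FPKM + 1) scale, which is used for every fold change below, the log2 fold change was -0.06 (standard error 0.17). The 2 Foxa1/2cKO samples differed from each other by 1.36-fold, more than the 2 group means did. *Tcf7* reads made up 0.320% to 0.413% of the reads on listed genes.

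*Lef1* (chromosome 3, 131110297 to 131224357, plus strand) encodes the other main factor of this pair in T cells. Its FPKM was 255 and 240 in the controls, 218 in cKO 1 and 269 in cKO 2. The order of the 4 samples was that of *Tcf7*, with cKO 1 lowest and cKO 2 highest. The log2 fold change of *Lef1* was -0.03 (standard error 0.13). The ratio of *Tcf7* to *Lef1*, which no scaling between samples can alter, was 6.68 and 6.84 in the controls, against 6.32 and 6.95 in Foxa1/2cKO. Of the summed FPKM of *Tcf7*, *Lef1*, *Tcf7l1* and *Tcf7l2*, *Tcf7* made up 86.1% to 87.3% and *Lef1* 12.6% to 13.6%, and the other pair at most 0.244%. The makeup of this family thus differed by about 1 percentage point between samples, while its main gene differed by up to 1.36-fold in level.

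Among the Sox genes 1 was abundant. *Sox4* (chromosome 13, 28948919 to 28953699, minus strand), a gene without introns, had an FPKM of 150 and 144 in the controls, 139 in cKO 1 and 179 in cKO 2. Again the Foxa1/2cKO samples lay on either side of both controls, and the log2 fold change was 0.10 (standard error 0.14). Cut into overlapping stretches of 50 bases, 54.1% of the longest GENCODE transcript of *Sox4* is also exonic in *Gm26735*, a long non-coding RNA on the opposite strand. The counting is not stated to use strand, so reads of the pair cannot be told apart. Without cKO 1 the log2 fold change of *Sox4* was 0.28 with an adjusted p of 0.0178 from limma, and without cKO 2 it was -0.07. Under that first setting 23.7% of all genes tested passed, and the call rests on cKO 2 alone.

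*Sox13* (chromosome 1, 133382300 to 133424459, minus strand) had an FPKM of 6.21 and 8.87 in the controls, 4.96 in cKO 1 and 2.91 in cKO 2. The reads behind these values were 328, 425, 189 and 114. Both Foxa1/2cKO samples lay below both controls, and each group differed widely within itself. The control mean of 7.54 ± 1.88 (SD, n = 2) was 1.92-fold the Foxa1/2cKO mean of 3.93 ± 1.45 (SD, n = 2). The log2 fold change was -0.80 (standard error 0.27), and it was -0.50 without cKO 2 and -1.11 without cKO 1. The 95% exact Poisson intervals, which cover counting error only, were 5.55 to 6.92 FPKM for control 1 and 4.28 to 5.72 for cKO 1. These intervals, of the pair of samples nearest to each other across the groups, overlap.

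*Sox13* is known as a gamma-delta T cell gene, and the other genes of that list were low. The 6 others that the file lists had a summed FPKM of 6.26 and 5.47 in the controls, 7.59 in cKO 1 and 3.65 in cKO 2, and *Il17a* was at 0 in all samples. Of the 8 genes of immature thymocytes, 5 had both Foxa1/2cKO samples below both controls, where 17.8% of all genes tested had that pattern. Among the 5 was *Notch3*, a receptor of early thymocytes, with 9.34 and 9.76 FPKM in the controls, against 7.02 and 3.60 in Foxa1/2cKO. That list's sum, most of which is the abundant *Cd24a*, was 223 to 231 FPKM in control and 225 to 232 in Foxa1/2cKO. The part of these genes and of the cycling genes in the *Sox13* values was not tested.

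*Sox12* (chromosome 2, 152393611 to 152398046, minus strand), a close relative of *Sox4* and likewise without introns, had an FPKM of 1.22 and 1.35 in the controls, 0.835 in cKO 1 and 0.406 in cKO 2. These rest on 81 reads in each control, 40 in cKO 1 and 20 in cKO 2. Both Foxa1/2cKO samples lay below both controls, as for *Sox13*, and cKO 2 was again the lowest. The control mean was 2.07-fold that of Foxa1/2cKO, and the log2 fold change was -0.51 (standard error 0.22). *Sox12* passed the filter on low values through the controls alone, which by itself favours a lower value in Foxa1/2cKO. The pseudocount of 1 shrinks the change of so low a gene. The log2 fold change was -1.0 with a pseudocount of 0.1 and -1.12 from limma-voom on the recovered reads. The Poisson interval was 0.969 to 1.52 FPKM for control 1, 0.597 to 1.14 for cKO 1 and 0.248 to 0.628 for cKO 2, so that of cKO 2 lay below that of control 1 and that of cKO 1 overlapped it.

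The promoter of *Sox12* is shown because it was the only one among the 16 RefSeq promoters of the 10 genes with a match to any motif searched. The 250 bases before each start were searched on both strands for the TCF/LEF letters CTTTGAT and CTTTGAA and for the forkhead letters TGTTTAC and TATTTAC. In *Sox12* the match, in capitals, is TGTTTAC and begins 107 bases before the start. The sequence is from RefSeq (GRCm38.p6, the assembly of mm10) and reads 5′ to 3′ on the minus strand of chr2:152398047-152398296.
Sox12: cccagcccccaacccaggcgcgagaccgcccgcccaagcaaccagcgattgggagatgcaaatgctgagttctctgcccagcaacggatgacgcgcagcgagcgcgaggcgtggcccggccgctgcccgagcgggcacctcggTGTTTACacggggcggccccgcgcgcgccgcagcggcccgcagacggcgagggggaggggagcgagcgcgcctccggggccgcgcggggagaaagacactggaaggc
Of all 32851 promoters in that table, 3.17% hold TGTTTAC in this window, 2.73% hold TATTTAC, 3.21% hold CTTTGAT and 4.46% hold CTTTGAA. The share that hold any of these was not computed, so nothing is read from a single match among the 16 promoters. The stretch has a GC content of 74.4%, against a median of 52.4% over the same 250 bases of all promoters. A match of 7 letters is a description of the sequence, and binding was not measured here. No match in the other 15 windows says only that these letters are absent from them.

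Of the 19 genes listed as Sox with a number, 3 reached an FPKM of 1 in any sample, *Sox4*, *Sox12* and *Sox13*, and 9 were at 0 in all samples. *Sox4* made up 95% and 93.1% of their summed FPKM in the controls, against 95.7% and 98.1% in Foxa1/2cKO. The share of *Sox13* was 3.93% and 5.75% in the controls, against 3.40% and 1.60% in Foxa1/2cKO, and that of *Sox12* was 0.773% and 0.872% against 0.574% and 0.223%. Both lesser genes thus had their smallest share in cKO 2.

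**Figure D2:**
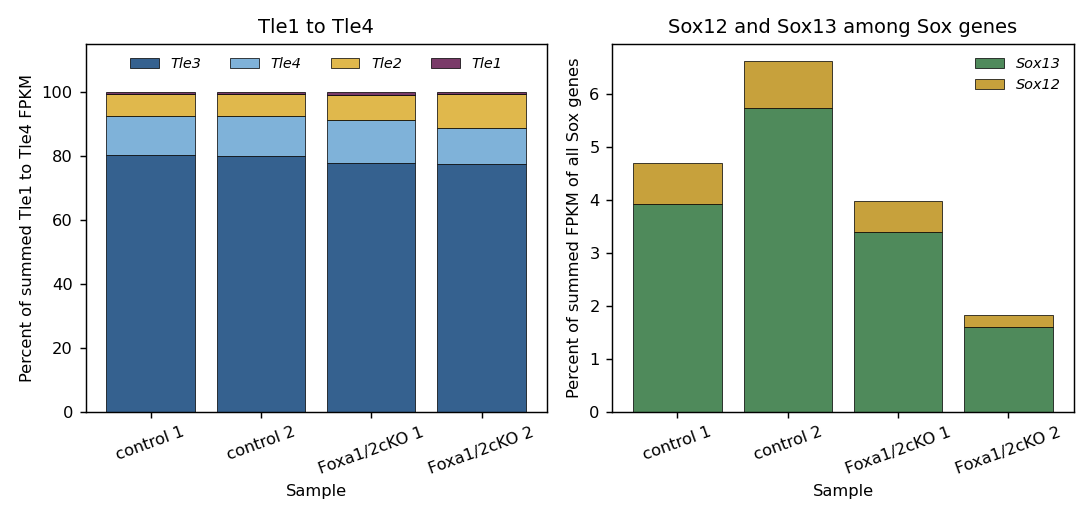
Makeup of the families in each sample, in percent of summed FPKM. Left, *Tle3*, *Tle4*, *Tle2* and *Tle1* as shares of their sum, where *Tle2* takes 6.80% and 6.93% in the controls, against 7.92% and 10.5% in Foxa1/2cKO. Right, *Sox13* and *Sox12* as shares of the sum of all Sox genes, both with their smallest share in cKO 2.

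*Ctnnb1* (chromosome 9, 120933400 to 120960507, plus strand), which encodes beta-catenin, had the narrowest relative range of the 10 genes over the 4 samples. Its FPKM was 116 and 114 in the controls, against 118 and 122 in Foxa1/2cKO, from 4622 to 6280 reads. Both values without Foxa1 and Foxa2 were above both controls, by a small margin. The log2 fold change was 0.06 (standard error 0.08) and ran from 0.04 to 0.08 over the fits that lacked 1 sample. Cut the same way, 18.6% of its longest transcript is shared with *Ulk4* on the opposite strand, which was itself at 0.115 to 0.379 FPKM. The ratio of *Ctnnb1* to the sum of *Tcf7* and *Lef1* was 0.0590 and 0.0603 in the controls, 0.0740 in cKO 1 and 0.0567 in cKO 2, so the Foxa1/2cKO samples lay on either side here too.

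The Groucho corepressors lack DNA binding of their own and are recruited by Tcf1, Lef1, Runx and Hes factors. *Tle3* (chromosome 9, 61372326 to 61418497, plus strand) had the highest FPKM of the full-length members, with an FPKM of 89.1 and 82.9 in the controls, 81.1 in cKO 1 and 99.1 in cKO 2. It shared the order of *Tcf7*, *Lef1* and *Sox4*, with a log2 fold change of 0.06 (standard error 0.13). The length behind its FPKM is 2601 bases or a multiple, against 11653 exonic bases in GENCODE, so its lead over the other members and its share of their sum depend on that length. *Tle4* (chromosome 19, 14448072 to 14598183, minus strand) was at 13.5 and 12.7 FPKM in the controls, against 14.1 and 14.4 in Foxa1/2cKO. Both Foxa1/2cKO samples were above both controls, and the log2 fold change was 0.12 (standard error 0.09), or 0.08 to 0.16 over the fits that lacked 1 sample.

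*Tle1* (chromosome 4, 72109945 to 72200989, minus strand) was at 0.648 and 0.714 FPKM in the controls, against 0.883 and 0.985 in Foxa1/2cKO, each from 116 to 133 reads. The groups did not overlap, and the Foxa1/2cKO mean was 1.37-fold the control mean. *Tle1* did not reach 1 FPKM in any sample and was not tested. Without the filter its log2 fold change was 0.20 (standard error 0.09). The Poisson intervals of control 2 (0.591 to 0.855) and cKO 1 (0.729 to 1.06) overlap. The length behind the FPKM of *Tle1* is 12173 bases or a multiple, longer than the 8711 exonic bases that GENCODE annotates, so its rank below *Sox12* depends on that length.

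*Tle2*, which is no member of the 10, completes the full-length group. Its FPKM was 7.53 and 7.16 in the controls, 8.27 in cKO 1 and 13.4 in cKO 2. Of the summed FPKM of *Tle1* to *Tle4*, *Tle3* made up 80.4% and 80.1% in the controls, against 77.7% and 77.5% in Foxa1/2cKO. The share of *Tle1* and that of *Tle2* were both higher in each Foxa1/2cKO sample than in each control. The share of *Tle4* overlapped between the groups, at 12.2% and 12.3% against 13.5% and 11.3%. The ratio of *Tcf7* to this sum was 15.4 and 15.9 in the controls, against 13.2 and 14.6 in Foxa1/2cKO, lower in both Foxa1/2cKO samples. The sum itself overlapped between the groups, at 111 and 103 FPKM in the controls, 104 in cKO 1 and 128 in cKO 2. In cKO 2 *Tcf7* was also at its highest. How often such shares and ratios of other genes separate the groups was not computed.

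*Axin2* (chromosome 11, 108917828 to 108950783, plus strand) encodes a scaffold of the destruction complex and is known as a feedback target of beta-catenin with TCF factors. Its FPKM was 10.5 and 9.08 in the controls, against 8.14 and 10.2 in Foxa1/2cKO, from 374 to 669 reads. The groups overlapped, with cKO 1 lowest and control 1 highest. The mean was 9.79 in control and 9.17 in Foxa1/2cKO, and the log2 fold change was -0.09 (standard error 0.15).

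**Figure D3:**
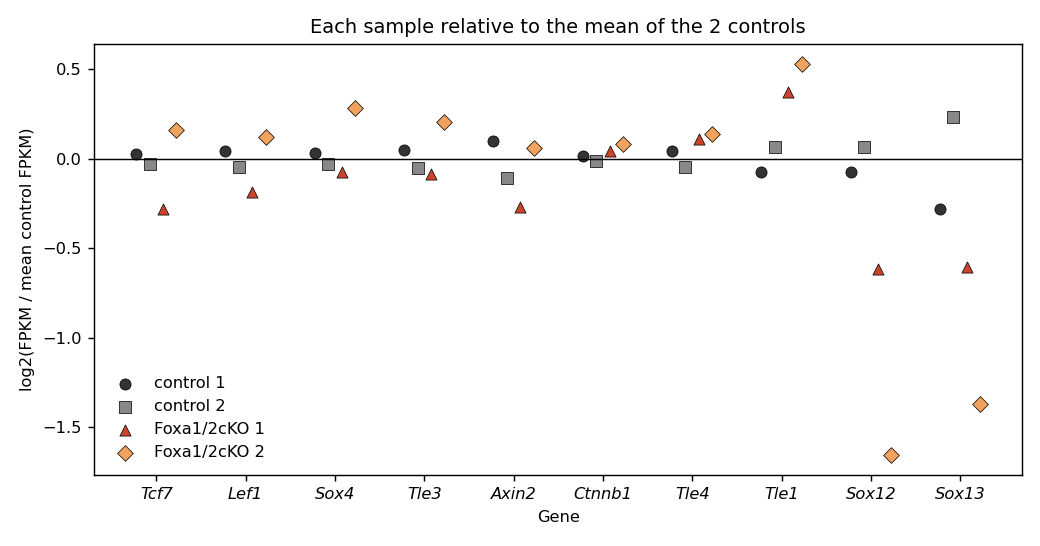
FPKM of each sample over the mean of the 2 controls, on a log2 scale with no pseudocount, for each of the 10 genes. For *Tcf7*, *Lef1*, *Sox4* and *Tle3* cKO 1 lies below both controls and cKO 2 above both, while for *Sox12* and *Sox13* both lie below.

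Side by side, the 10 genes fell into few patterns. In 4 of them, *Tcf7*, *Lef1*, *Sox4* and *Tle3*, cKO 1 lay below and cKO 2 above both controls, a pattern held by 18.4% of all genes tested. In *Ctnnb1*, *Tle1* and *Tle4* both Foxa1/2cKO samples were above both controls, and *Ctnnb1* and *Tle4* were tested. Among all genes tested 18.9% had that pattern. In *Sox12* and *Sox13* both were below both controls, as in 17.8% of all genes tested, and *Axin2* had none of these patterns. Each gene kept its pattern under upper-quartile scaling and under scaling to all recovered reads. The median absolute log2 difference between the 2 Foxa1/2cKO samples was 0.30 over the 9 members tested and 0.20 over all genes tested. Between the 2 controls it was 0.08 for both.

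By limma, with Benjamini-Hochberg adjustment over all 10776 genes tested, 0 of the 9 members passed an adjusted p of 0.05, a threshold that 1 gene, or 0.00928%, passed. At an unadjusted p under 0.05 there was 1 member, *Sox13*, where 4.55% of all genes tested passed. From limma-voom on the recovered reads 0 members passed by adjusted p. At an unadjusted p under 0.05 it gave 2, *Sox13* and *Sox12*, where 4.82% of all genes passed. *Sox12* was tested only because the controls reached the filter, which favours a lower value in Foxa1/2cKO. Nothing is read from these counts, since the same samples were in view when the genes were proposed. The median log2 fold change of the 9 was -0.03, against 0.01 over all genes tested. The sign of 5 of the 9 depended on a single library. *Tcf7*, *Lef1* and *Axin2* were positive without cKO 1, *Lef1* and *Axin2* also without control 1, and *Sox4* and *Tle3* were negative without cKO 2.

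**Figure D4:**
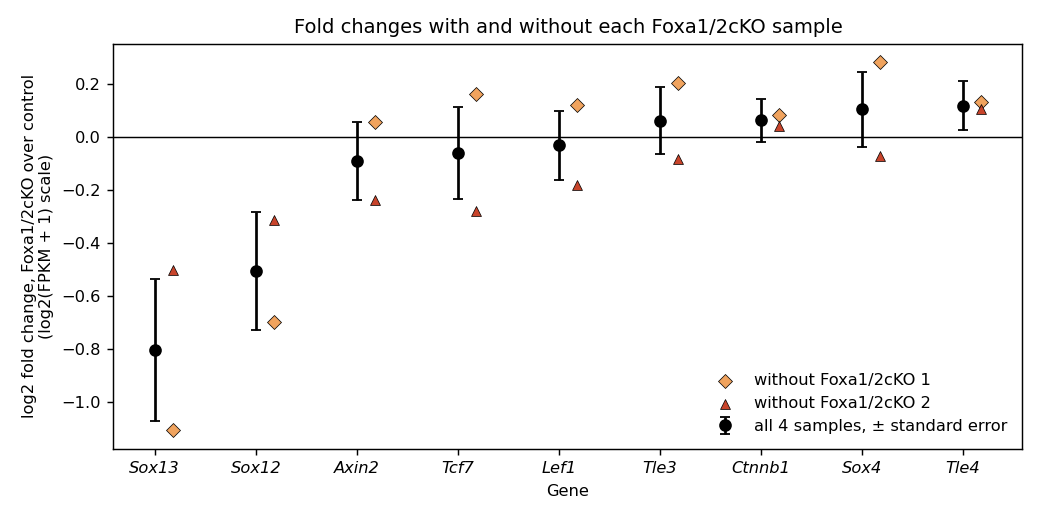
Log2 fold change of Foxa1/2cKO over control on the log2(FPKM + 1) scale for the 9 members tested, with all 4 samples (black, ± standard error) and without each Foxa1/2cKO sample. *Sox12* and *Sox13* stay negative, while *Tcf7* runs from -0.28 without cKO 2 to 0.16 without cKO 1.

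The rest of the pathway was read from lists written by function. They hold 112 genes besides the 10, of which 111 were listed under the symbol used and 67 tested. By limma 0 of the 67 passed an adjusted p of 0.05, and *Tox4* and *Tle6*, 2 genes, had an unadjusted p under 0.05, against 4.55% of all genes tested. From limma-voom on the recovered reads the counts were 0 and 3, *Themis* being the third, against 4.82% of all genes tested at an unadjusted p under 0.05. The median absolute log2 fold change was 0.13, against 0.11 over all genes tested, and 62 of the 67 were under 0.5. Without cKO 1, 24 of the 67 passed at an adjusted p under 0.05, or 18 higher and 6 lower, and without cKO 2 none did. Under the first setting 23.7% of all genes tested passed, and under the second 0.176%.

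In the Groucho group all 6 listed genes were tested. *Tle6*, a divergent relative of the full-length proteins, was at 2.12 and 2.49 FPKM in the controls, against 4.64 and 5.28 in Foxa1/2cKO, from 64, 68, 101 and 118 reads. Both Foxa1/2cKO samples were close to each other and well above both controls, with the Foxa1/2cKO mean at 2.15-fold the control mean. It did not pass over all genes tested, with a log2 fold change of 0.85 (standard error 0.14) and limma's adjusted p at 0.863. *Aes*, which lacks the WD repeats of the full-length proteins, was the most abundant of the group at 348 and 352 FPKM in the controls, against 343 and 443 in Foxa1/2cKO, 3.15 to 3.46 times the sum of *Tle1* to *Tle4*. *Hes1*, a Notch target whose protein recruits Groucho, was lowest in fold change at -0.51 (standard error 0.34), with 27 and 21 reads in the controls, 16 in cKO 1 and 2 in cKO 2.

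Of 25 other HMG-box genes 9 were tested, and 9 were at 0 in all samples. *Tox*, which is needed for CD4 lineage development, was the most abundant, with 123 and 110 FPKM in the controls, 102 in cKO 1 and 182 in cKO 2, so the groups overlapped. *Tox4* had the highest fold change of the list, with 30.3 FPKM in each control and 34.4 and 40.3 in Foxa1/2cKO (log2 fold change 0.29, standard error 0.11). *Tcf7l1*, a mostly repressive relative of *Tcf7*, had the lowest at -0.24 (standard error 0.17), with 2.64 and 2.73 FPKM in the controls, against 2.44 and 1.81 in Foxa1/2cKO.

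The destruction complex list had 16 of 17 genes tested, with log2 fold changes from -0.11 to 0.18. *Ppp2ca*, a phosphatase subunit, was the most abundant of those, *Tnks*, which marks axin for degradation, had the highest fold change, and *Gsk3b*, a kinase of beta-catenin, the lowest, at 23.3 and 23.7 FPKM in the controls, against 21.2 and 22.2 in Foxa1/2cKO. Among the cofactors 14 of 17 were tested. *Ldb1*, a bridging cofactor, was at 206 to 274 FPKM. *Ctnnbip1*, an inhibitor of beta-catenin binding to TCF, had the highest log2 fold change of the list at 0.38 (standard error 0.25), with 5.30 and 4.89 FPKM in the controls, 5.22 in cKO 1 and 9.06 in cKO 2. *Ctnnd1*, a catenin of cadherin junctions, was lowest at -0.41 (standard error 0.21).

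Of 23 Wnt receptor and proximal genes 8 were tested. *Dvl2*, an adaptor below the receptors, was the most abundant and had the highest fold change, and *Rnf43*, which removes Wnt receptors and is itself a Wnt target, the lowest. *Rnf43* was at 2.51 FPKM in both controls, 2.36 in cKO 1 and 1.21 in cKO 2. The 5 Wnt target genes tested had log2 fold changes from -0.68 to -0.03, and by limma 0 passed at an adjusted p of 0.05 and 0 had an unadjusted p under 0.05. The lowest, *Myc*, was at 53.5 and 54.0 FPKM in the controls and 52.4 in cKO 1, against 20.7 in cKO 2, so its difference came from 1 sample. The highest, *Ccnd1*, a cyclin, was at 1.60 and 0.970 FPKM in the controls, 1.59 in cKO 1 and 0.902 in cKO 2, and the groups overlapped. The sample lowest in *Myc*, cKO 2, was also the lowest in the summed cycling genes.

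Of 12 thymocyte genes known to be bound by, or to depend on, Tcf1 or Lef1, 6 had a positive and 6 a negative log2 fold change, with a median of 0.01. *Cd3g*, a TCR chain, was the most abundant at 664 and 665 FPKM in the controls, against 624 and 849 in Foxa1/2cKO. *Themis*, a regulator of TCR signals, had the highest log2 fold change at 0.46 (standard error 0.18). *Zbtb7b*, which encodes the CD4 lineage factor ThPOK, had the lowest at -1.03 (standard error 0.67), with 43.1 and 53.4 FPKM in the controls, 47.1 in cKO 1 and 10.9 in cKO 2. *Gata3* followed the order of *Tcf7*, with 88.6 and 77.7 FPKM in the controls, 64.2 in cKO 1 and 99.2 in cKO 2. *Gata3* and *Notch3* were named after their values were seen.

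**Figure D5:**
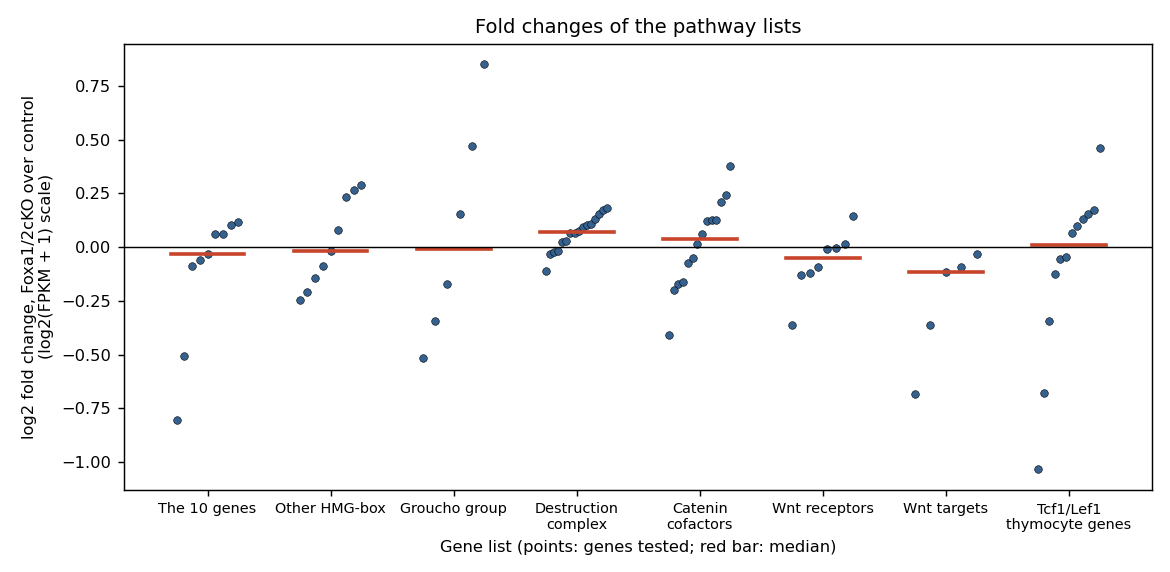
Log2 fold change of Foxa1/2cKO over control on the log2(FPKM + 1) scale for the tested genes of each list, as points, with the median of each list as a red bar. List medians lie between -0.12 for Wnt targets and 0.07 for the destruction complex.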

How the data were processed

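RNA of the 4 samples was sequenced on an Illumina NextSeq, and per the study's methods reads were aligned to mm10 with RefSeq gene models and counted by HTSeq (union). The submitters' processing notes name TopHat, Picard and DESeq2. The values deposited by the authors carry no stated unit and were read as FPKM from their steps, and the step that made them is not given in the sources used here. Each column is headed by genotype and number, as the sample titles are.

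Every one of the 16069 genes above 0 gave whole reads in all samples (100%, tolerance 0.05 reads). The length of each gene was the smallest that made its reads whole, so the search itself favoured this result. Reads are known up to a divisor that a gene's values share. The sample totals behind the FPKM were proportional to size factors of 0.867 to 1.20, so the deposited FPKM already carry a scaling between samples. Each test was limma 3.58.1 in R 4.3.3 on log2(FPKM + 1) with a mean-variance trend, with p-values adjusted by Benjamini-Hochberg (0.05), for genes that reached 1 FPKM in at least 2 samples. The fit had 2 residual degrees of freedom. With 6 arrangements of 2 against 2 samples, a two-sided exact permutation test of 1 gene could not go below p = 0.333. The code was tested on simulated data with the same spread in both groups. In the real data the SD of the log2 difference between replicates was 0.40 in Foxa1/2cKO and 0.20 in control. How the test performs at that unequal spread was not simulated. Intervals are exact Poisson at 95%.

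The 10 genes and all lists were chosen with earlier results of these data known. The text names the 10 genes, *Foxa1*, *Foxa2*, the most abundant gene of every list, and the genes highest and lowest in fold change of every pathway list. *Tle2*, *Jup*, *Gata3*, *Notch3*, *Foxn1*, *Epcam*, *Aire*, *Ulk4*, *Il17a* and the sort genes were named after their values were seen. Alternatives were a pseudocount of 0.1, no filter, upper-quartile scaling, scaling to all recovered reads, a replicate block, a loess correction for gene length with and without that block, limma-voom on the recovered reads, a threshold of 0.1 and leaving out each sample. Coordinates and promoters are from RefSeq on GRCm38.p6, and exon overlaps from GENCODE.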

Additional observations from a re-analysis of the deposited data

How the results depend on the processing

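With each of the 4 samples left out in turn, 0 to 2559 genes passed, against 1 with all samples, 0 to 2 of the members did, against 0, and 0 to 24 of the pathway genes, against 0. Without Foxa1/2cKO 1 the member calls were *Sox13* (adjusted p = 0.0124 from limma) and *Sox4* (adjusted p = 0.0178 from limma), without Foxa1/2cKO 2 there were 19 genes and no member, and without either control no gene passed. An arm left with 1 sample is assumed to vary like the other group. The count of genes past the threshold was 0 instead of 1 with a pseudocount of 0.1, with no filter on low values, with upper-quartile scaling, with scaling to all recovered reads and with limma-voom. It stayed at 1 with the length correction, the replicate block, both together and a threshold of 0.1, and no member or pathway gene passed under any of these 9. The samples share only a replicate number. Deviations of the same-numbered samples had a correlation of -0.0587, and the block lowered the genes with an unadjusted p under 0.05 from 490 to 378. Of 72 values of the members' log2 fold changes under the alternatives that kept all samples, 69 moved by less than the SD between replicates and 0 changed sign. The others were *Sox12* with a pseudocount of 0.1 (-1.0) and from limma-voom (-1.12), and *Ctnnb1* scaled to all recovered reads (0.03). Leaving out a sample changed the sign of 5 members, with ranges of -0.28 to 0.16 for *Tcf7*, -0.18 to 0.12 for *Lef1*, -0.07 to 0.28 for *Sox4*, -0.08 to 0.20 for *Tle3* and -0.24 to 0.06 for *Axin2*. *Sox13* ranged from -1.11 to -0.50 and *Sox12* from -0.70 to -0.31. Depth limits *Sox12* and *Tle1*, with 20 to 133 reads per sample, most.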

Other observations

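*Jup* encodes plakoglobin, the closest relative of beta-catenin. Its FPKM was 63.9 in control 1, 51.8 in control 2, 47.8 in cKO 1 and 97.6 in cKO 2. The ratio of *Jup* to *Ctnnb1* was 0.552 and 0.456 in the controls, 0.405 in cKO 1 and 0.803 in cKO 2, so the 2 Foxa1/2cKO samples differed more from each other than from the controls. Its log2 fold change was 0.24 (standard error 0.35).

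The most abundant gene of each list of other cell types and stages was read as well. *Cd8b1* of the preselection DP list had 592 and 613 FPKM in the controls, 668 in cKO 1 and 974 in cKO 2, and *Cd5* of the TCR response list had 484 and 423, then 402 and 732. *Cd52* of the mature list was at 803 to 933 FPKM, and *Top2a* of the cycling list at 144 to 179 in all but cKO 2, where it was at 51.4. *Cd24a* of the immature list was at 128 and 137 FPKM in control, 138 in cKO 1 and 184 in cKO 2. The list medians of log2 fold change were 0.08 for preselection DP, 0.06 for TCR response, -0.40 for mature, -0.60 for cycling and -0.58 for immature genes, and by limma 0 genes of any of them passed an adjusted p of 0.05. Unadjusted p under 0.05 was found for 2 of 8 immature genes and 1 of 8 mature genes, against 4.55% of all genes tested.

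Markers of other cells were low. *Cd79b* of B cells was at 19.1 to 26.4 FPKM and *Lyz2* of myeloid cells at 7.08 to 15.2. The summed B cell list was 50.6 to 76.2 FPKM in control and 54.4 to 104 in Foxa1/2cKO, and the myeloid list 33.5 to 60.6 and 19.6 to 46.8, so both overlapped. *Cldn4*, the highest gene of the thymic epithelial list, was at 5.08 to 7.52 FPKM. Of the 8 genes on that list 3 were tested, *Cldn4*, *Epcam* at 2.76 to 3.86 FPKM and *Aire* at 1.71 to 3.43 FPKM. *Foxn1*, which defines that lineage, had at most 2 reads and was not tested. Of 6 erythroid genes 4 were listed at 0 in all samples, and *Alas2* was at 0.608 to 2.62 FPKM. The median log2 fold change was 0.31 over 5 B cell genes, -0.42 over 8 myeloid genes and 0.23 over 3 epithelial genes, and 0 of these passed at an adjusted p of 0.05 by limma, or at an unadjusted p under 0.05.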
